A study of Homo sapiens with 12 samples.

Results

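The 8 genes described here, IL17A, IL17F, IL22, IL23R, CCR6, IL1R1, RUNX1 and BATF, are lymphocyte targets of RORγt. They were chosen by name from 20090 protein-coding genes, and the enriched regions called at and around them were read in every deposited list from a breast cancer line. A promoter window ran from 1 kb upstream to 100 bp downstream of any GENCODE transcript start of a gene, and a gene window held the gene and 50 kb either side. The study profiled HCC70, an established triple-negative breast cancer line, by chromatin immunoprecipitation and sequencing (ChIP-seq). Cells of passages labelled 6-9 received vehicle or XY018, an antagonist of RORγ, for 24 h. The labels give a dose of 5 µM and the study's text a lower one. Of 12 samples, 6 were immunoprecipitated with a rabbit serum against RORγ, with anti-SREBP2 or with antibody to acetylated lysine 27 of histone H3 (H3K27ac), each with vehicle and with XY018. The other 6 were input libraries and were not analysed here. Every group was 1 library from 1 cell line, so no difference had a replicate check and none was tested.

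RORγt is the lymphocyte isoform of the nuclear receptor RORγ. It binds response elements made of an A/T-rich stretch and the core AGGTCA (ROREs), and it directs the differentiation of T helper 17 (Th17) cells. Among its known targets there, IL17A, IL17F and IL22 encode secreted cytokines, IL23R, CCR6 and IL1R1 encode receptors through which Th17 cells are maintained, recruited or stimulated, and RUNX1 and BATF encode transcription factors that act with RORγt. The other isoform, RORγ, is expressed in many tissues and differs from RORγt at its amino terminus. SREBP2 is the main activator of cholesterol synthesis genes, and H3K27ac marks active promoters and enhancers.

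The lists held 167264 regions for RORγ with vehicle and 129954 with XY018, 117441 and 69700 for SREBP2, and 95099 and 105371 for H3K27ac. Mapped tags, recovered from the background that the peak caller used, came to between 3.65 and 6.16 per kb of genome. Many calls were weak: 20.8% of the RORγ vehicle regions and 77.8% of the H3K27ac vehicle regions had q of at most 1e-05, and the least supported regions rested on 3 to 5 fragments. The cell type was checked by H3K27ac at promoters, where 66.8% of all protein-coding genes had a region with vehicle and 68% with XY018. All 6 epithelial marker genes (EPCAM, KRT8, KRT18, KRT7, KRT19 and CDH1) had one in both libraries. Of 6 basal breast markers 4 did in each, a share like that of all genes. KRT5, KRT17 and EGFR did in both, TP63 with vehicle alone, KRT6A with XY018 alone and KRT14 in neither. Of 10 T lymphocyte markers, 2 did, CD8A with 16 fragments in each library and LCK with 65 and 88. CD3D, CD3E, CD3G, CD2, CD4, PTPRC, CD28 and IL2RG had none. Of 3 receptor genes, ERBB2 had one in each library (180 and 239 fragments). Of the hormone receptor genes among them, ESR1 had a weaker one (10 and 13) and PGR had none.

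ROREs were searched as ANTAGGTCA, TNTAGGTCA, ANTGGGTCA and TNTGGGTCA on both strands. The canonical promoter windows of 2 members held a match, IL17A at -242 bp and IL23R at -66 bp from the start. Over 19812 genes with a canonical promoter, 9.34% of windows held a match. Another match, in the 3′ untranslated region of RUNX1, lay 23 bp from a RORγ summit. These sites are shown because they set a match without a called region beside a match within a called region. The 9 capitals mark the element, read 5′ to 3′ along the matching strand of hg19.

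IL17A promoter, chr6:52050927-52050935, minus strand: gctgctatgcTATGGGTCAatatcatgta

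IL23R promoter, chr1:67632067-67632075, plus strand: gagtctgcaaTGTAGGTCAgggctctgct

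RUNX1 last exon, chr21:36164272-36164280, minus strand: aggatctcgcTGTAGGTCAggcccgcgca

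The matches of IL23R and RUNX1 shared the same 9 letters. The RUNX1 match lay under 65 RORγ fragments at the vehicle summit, and the IL23R and IL17A matches under no called region of any library. Across the gene windows, RORγ vehicle regions held 2 of 203 RORE matches at RUNX1 and 1 of 21 at BATF, and none of the 17, 15, 14, 30, 13 and 33 matches in the windows of IL17A, IL17F, IL22, IL23R, CCR6 and IL1R1. In the whole genome 1.02% of 350802 matches lay in such regions. Of the 73 RORγ vehicle regions at the members, 1 had a RORE within 100 bp of its summit, against 1.01% of all RORγ vehicle summits. With XY018 it was 0 of 50, against 1.05%. The SREBP2 response element, searched as TCACNCCAC, matched in the canonical promoter of IL17F, at -626 bp, where no SREBP2 region was called. It was present in 6.11% of the 19812 windows. Of the 48 SREBP2 vehicle regions at the members, 2 had this element within 100 bp of the summit, against 2.42% of all SREBP2 vehicle summits. These regions lay in the windows of IL23R and RUNX1, with 8 and 6 fragments. With XY018 it was 0 of 32, against 1.76%.

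The 150 bases upstream of the canonical starts of IL1R1 (chr2:102759056-102759205, plus strand) and IL23R (chr1:67631987-67632136, plus strand) are set side by side, since the first was called for both factors and for H3K27ac and the second for none. The capitals in the IL23R line mark the RORE given above.

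IL1R1 upstream: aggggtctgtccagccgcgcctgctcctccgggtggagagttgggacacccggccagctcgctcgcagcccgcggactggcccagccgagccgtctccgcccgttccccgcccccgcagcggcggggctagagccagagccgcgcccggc

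IL23R upstream: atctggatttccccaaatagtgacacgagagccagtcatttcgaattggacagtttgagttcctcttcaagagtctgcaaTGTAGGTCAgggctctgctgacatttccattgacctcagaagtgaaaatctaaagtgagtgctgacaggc

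At promoters, RORγ regions were called at 2 of the 8 members with vehicle, IL1R1 and RUNX1, while 62.7% of the 20090 protein-coding genes had one. With XY018 there were 3, the same genes and a weak call at CCR6, against 61.5% of all genes. SREBP2 regions lay at 3 members with vehicle (IL1R1, RUNX1 and a weak call at IL23R, against 70.6%) and at 2 with XY018 (against 62.7%). H3K27ac regions lay at the same 3 members, IL1R1, RUNX1 and BATF, with vehicle (against 66.8%) and with XY018 (against 68%). With regions restricted to q of at most 1e-05, IL1R1 and RUNX1 were the members called for either factor in all 4 lists, beside 51.9% and 50.7% of all genes for RORγ and 64.6% and 54.2% for SREBP2. H3K27ac stayed at 3 members, beside 65.2% and 66.3%. The cytokine genes IL17A, IL17F and IL22 had no promoter region in any of the 6 lists. The lists hold called regions only, so the absence of a row says no more than that no region is listed there. The H3K27ac lists hold a selection, with 95099 and 105371 regions whose numbers run up to 245055 and 241397, by a rule that no source used here states.

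**Figure D1:**
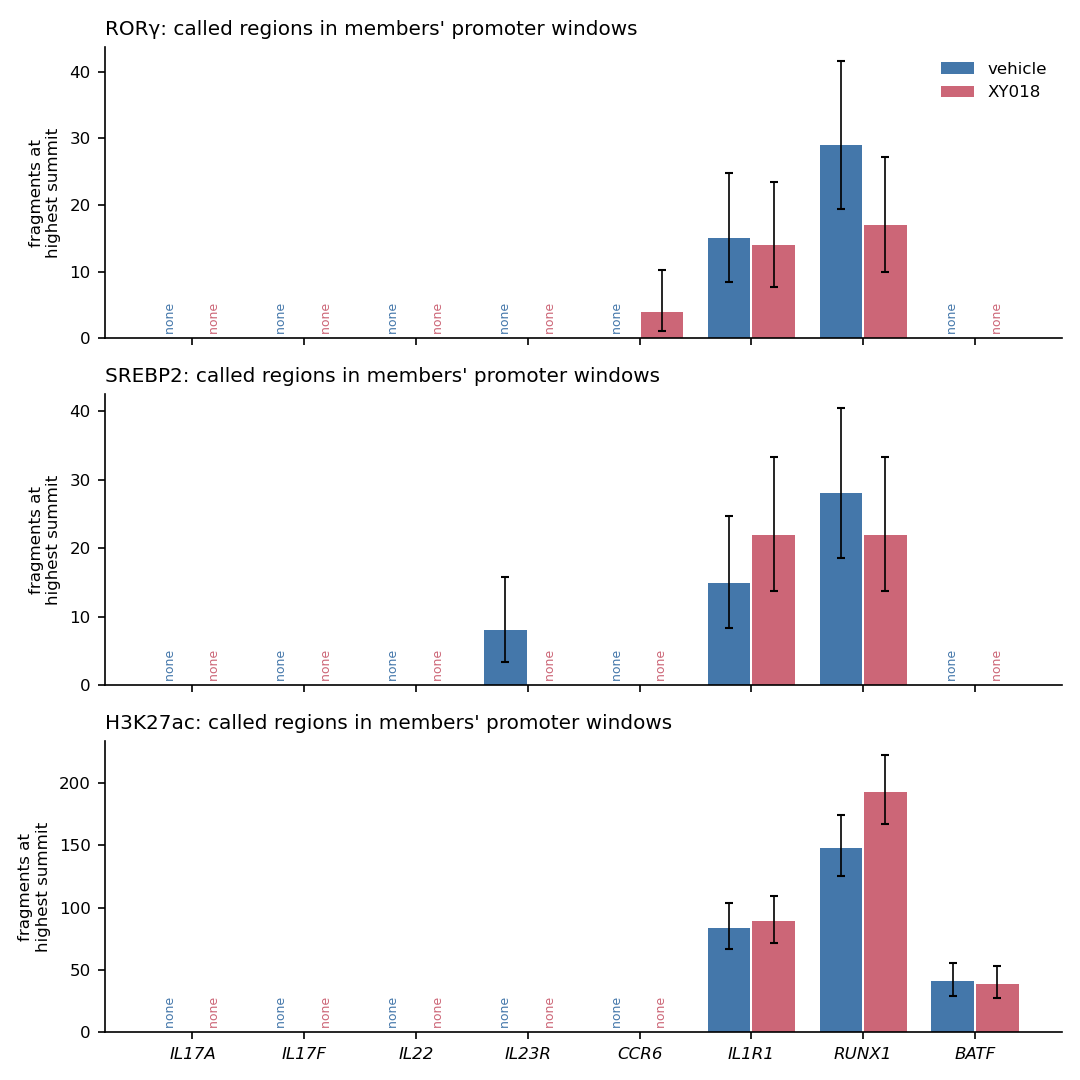
Fragments at the highest summit of the regions called in any promoter window of each member, with vehicle (blue) and XY018 (red). Bars start at 0, the error bars are exact Poisson 95% intervals that cover counting error only, and "none" marks members with no called region. IL1R1 and RUNX1 carried both factors and H3K27ac, BATF carried H3K27ac alone, and the 3 cytokine genes carried none.

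Widening the promoter to 5 kb either side of any start brought the counts to 5 and 6 members for RORγ, against 80% and 77% of all genes. For SREBP2 they came to 4 and 5, against 81.1% and 73.5%, and for H3K27ac they stayed at 3 and 3, against 72.3% and 73.5%. In the gene windows all 8 members had a RORγ region with either treatment, as did 97.5% and 96.5% of all genes. For SREBP2, 7 and 8 members had one, against 95.6% and 93.3%, and for H3K27ac 6 and 6, against 85.2% and 85.4%. In all, the windows held 73 and 50 distinct RORγ regions, 48 and 32 SREBP2 regions, and 101 and 128 H3K27ac regions. RUNX1, with the longest window, took 28 and 12, 17 and 9, and 58 and 66 of them.

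IL17A (chr6:52051173-52055436, plus strand) encodes the founding cytokine of the Th17 lineage. Its window held 2 RORγ regions with vehicle and 3 with XY018, and the strongest in each list rested on 5 and 7 fragments. SREBP2 had 2 regions in each list, of at most 8 and 10 fragments, and H3K27ac had none. None of these regions reached q of 1e-05, all lay more than 10 kb from the start, and the nearest RORγ vehicle region of that strength was 98 kb from it. Over all genes the median distance to such a region was 1.1 kb.

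IL17F (chr6:52101479-52110487, minus strand) encodes a cytokine that pairs with IL17A, and their windows overlap. The strongest region in its window, in each of the 6 lists, was not its own but lay at the promoter of MCM3, a subunit of the replicative helicase. There RORγ had 24 fragments with vehicle and 18 with XY018, SREBP2 had 24 and 24, and H3K27ac had 83 and 91. Nearest to a start of IL17F was an intronic region, 599 bp downstream of a start (chr6:52108593-52108881). It held 8 RORγ fragments with vehicle (95% interval 3.45 to 15.8) and 7 with XY018 (2.81 to 14.4), and 6 SREBP2 fragments with vehicle, and no H3K27ac region overlapped it. The intronic RORγ region was thus listed with both treatments, at q of 0.000189 and 0.000318. Another intronic region (chr6:52105886-52106090), of SREBP2 with XY018 alone, held 11 fragments (5.49 to 19.7) at q of 0.000213.

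IL22 (chr12:68642022-68647384, minus strand), a cytokine that acts on epithelia, had the fewest regions. RORγ had 2 regions with each treatment, of 4 or 5 fragments, and SREBP2 had none with vehicle and 1, of 7 fragments, with XY018. H3K27ac had 1 region with vehicle, of 12 fragments, and 2 with XY018, of 15 and 11, more than 12 kb downstream of the start. The nearest RORγ vehicle region at q of at most 1e-05 lay 357 kb from the start of IL22, and 1.18% of genes lay further from one.

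IL23R (chr1:67604590-67725662, plus strand) encodes the receptor subunit through which IL-23 sustains Th17 cells. It had the most RORγ regions per length among the members, 11.3 per 100 kb with vehicle and 7.24 with XY018, against medians of 7.19 and 5.4 over all genes. With vehicle, 3 of its 25 RORγ regions reached q of 1e-05. The strongest lay at the promoter of the neighbouring IL12RB2, a subunit of the IL-12 receptor, with 90 RORγ fragments with vehicle and 64 with XY018, 68 and 52 SREBP2 fragments, and 20 and 19 H3K27ac fragments. The others held 10 and 12 fragments and lay at -6686 and -1441 bp from an IL23R start, and no H3K27ac region overlapped them. The single promoter call at IL23R, of SREBP2 with vehicle, rested on 8 fragments at q of 0.0548. The H3K27ac region at IL12RB2 was the only one in the IL23R window in either list.

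CCR6 (chr6:167525295-167552629, plus strand) encodes the chemokine receptor by which Th17 cells home to CCL20. No H3K27ac region lay in its window, and the nearest was 123 kb from the canonical start in both lists. Its promoter call, of RORγ with XY018, rested on 4 fragments at q of 0.0821. The strongest regions were of SREBP2 with vehicle. One lay in an intron of CCR6 (chr6:167544820-167545288), 8416 bp downstream of a start, with 13 fragments with vehicle and 11 with XY018. The other lay in an exon of GPR31, with 14 fragments with vehicle at a summit of 167571030. The XY018 region that met it had its summit at 167571271, with 5 fragments at q of 0.183. RORγ reached at most 7 fragments with vehicle and 6 with XY018 in this window.

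IL1R1 (chr2:102681004-102796334, plus strand) encodes the receptor for interleukin-1, and epithelial cells as well as lymphocytes express it. Both factors were called at the canonical start, 102759206, in all 4 lists. RORγ had 15 fragments with vehicle (8.4 to 24.7) and 14 with XY018 (7.65 to 23.5), a fold over local background of 8.66 and 6.05. SREBP2 had 15 fragments with vehicle (8.4 to 24.7) and 22 with XY018 (13.8 to 33.3), and H3K27ac had 84 and 89. The RORγ summits lay within 21 bp of a start. Among all genes with a RORγ promoter call, the median was 24 fragments with vehicle and 21 with XY018, so the IL1R1 promoter ranked below the middle of called promoters. H3K27ac regions covered 18 kb of the window with vehicle, in 25 regions, and 18.2 kb with XY018, in 32. Regions at 3 further clusters of starts upstream included 63 and 53 H3K27ac fragments close to the most distal start, where neither factor was called. The promoter of the neighbouring receptor gene IL1RL2 was called in all 6 lists, with 14 and 13 RORγ fragments, 29 and 13 SREBP2 fragments and 47 and 63 H3K27ac fragments.

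RUNX1 (chr21:36160098-37376965, minus strand) has 16 annotated starts, and its calls lay at some of them and not at others. The canonical start, 36421599, and the 4 other starts clustered around it had no factor region and no H3K27ac region in their promoter windows. H3K27ac regions were listed just downstream of these windows. The nearest lay 0.749 kb from the canonical start with vehicle and 0.687 kb with XY018. The most distal start, 37376965, had an H3K27ac region with XY018 alone and no factor region. The starts at 36259480, 36260987 and 36262087 had regions in all 6 lists. The region over the last of these held 29 RORγ fragments with vehicle (19.4 to 41.6) and 17 with XY018 (9.9 to 27.2), 28 and 22 SREBP2 fragments, and 148 and 193 H3K27ac fragments. Its RORγ summit lay at 36261348 with vehicle, nearer the start at 36260987, and at 36261948 with XY018. The SREBP2 summits lay at 36262029 with vehicle and 36262241 with XY018. The counts of either factor thus belong to different positions within a wide region. The region just downstream of the start at 36259480 held 27 and 13 RORγ fragments, 24 and 20 SREBP2 fragments and 123 and 119 H3K27ac fragments. These were the strongest H3K27ac regions of all the members' windows. A further 2 starts had RORγ calls with vehicle alone, of 4 and 5 fragments, in windows with no H3K27ac region.

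Within the RUNX1 gene the strongest RORγ region was the one in the last exon that contains the RORE shown above (chr21:36163959-36165138). It held 65 RORγ fragments with vehicle (50.2 to 82.8) and 64 with XY018 (49.3 to 81.7), a fold of 35.9 and 32.7, with 48 and 46 SREBP2 fragments and 41 and 43 H3K27ac fragments. With vehicle this was the highest RORγ fold in any member's window, above the 28.7 of the region at IL12RB2, which had more fragments. The counts with vehicle and XY018 lay within each other's intervals. The RORγ summits lay at 36164253 with vehicle and 36164403 with XY018, so these counts belong to different positions within the region. Only the vehicle RORγ summit lay within 100 bp of the RORE. An intronic region (chr21:36398962-36399491) held 27 and 32 RORγ fragments and 36 and 26 SREBP2 fragments and overlapped an H3K27ac region. A region at chr21:37258968-37259468 held 25 and 18 RORγ fragments and 28 and 22 SREBP2 fragments, and no H3K27ac vehicle region overlapped it. This region met the promoter window of the non-coding gene PPP1R2P2, and its RORγ fold was 8.2 with vehicle and 4.8 with XY018.

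BATF (chr14:75988798-76013336, plus strand) encodes an AP-1 family factor needed for Th17 differentiation. Its promoter was acetylated, with 41 fragments with vehicle and 39 with XY018, and no region of either factor was called there. Both factors were instead called in the last exon, about 24 kb downstream. RORγ had 16 fragments with vehicle (9.15 to 26) and 21 with XY018 (13 to 32.1), and SREBP2 had 49 (36.3 to 64.8) and 33 (22.7 to 46.3). An H3K27ac region of 24 fragments with vehicle overlapped the site. Across the BATF window, H3K27ac regions numbered 13 with vehicle and 23 with XY018 and covered 9.33 and 11.6 kb. At the promoter of the neighbouring FLVCR2, a transporter gene, SREBP2 had 34 fragments with vehicle and 12 with XY018 while RORγ had 5 and 5.

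**Figure D2:**
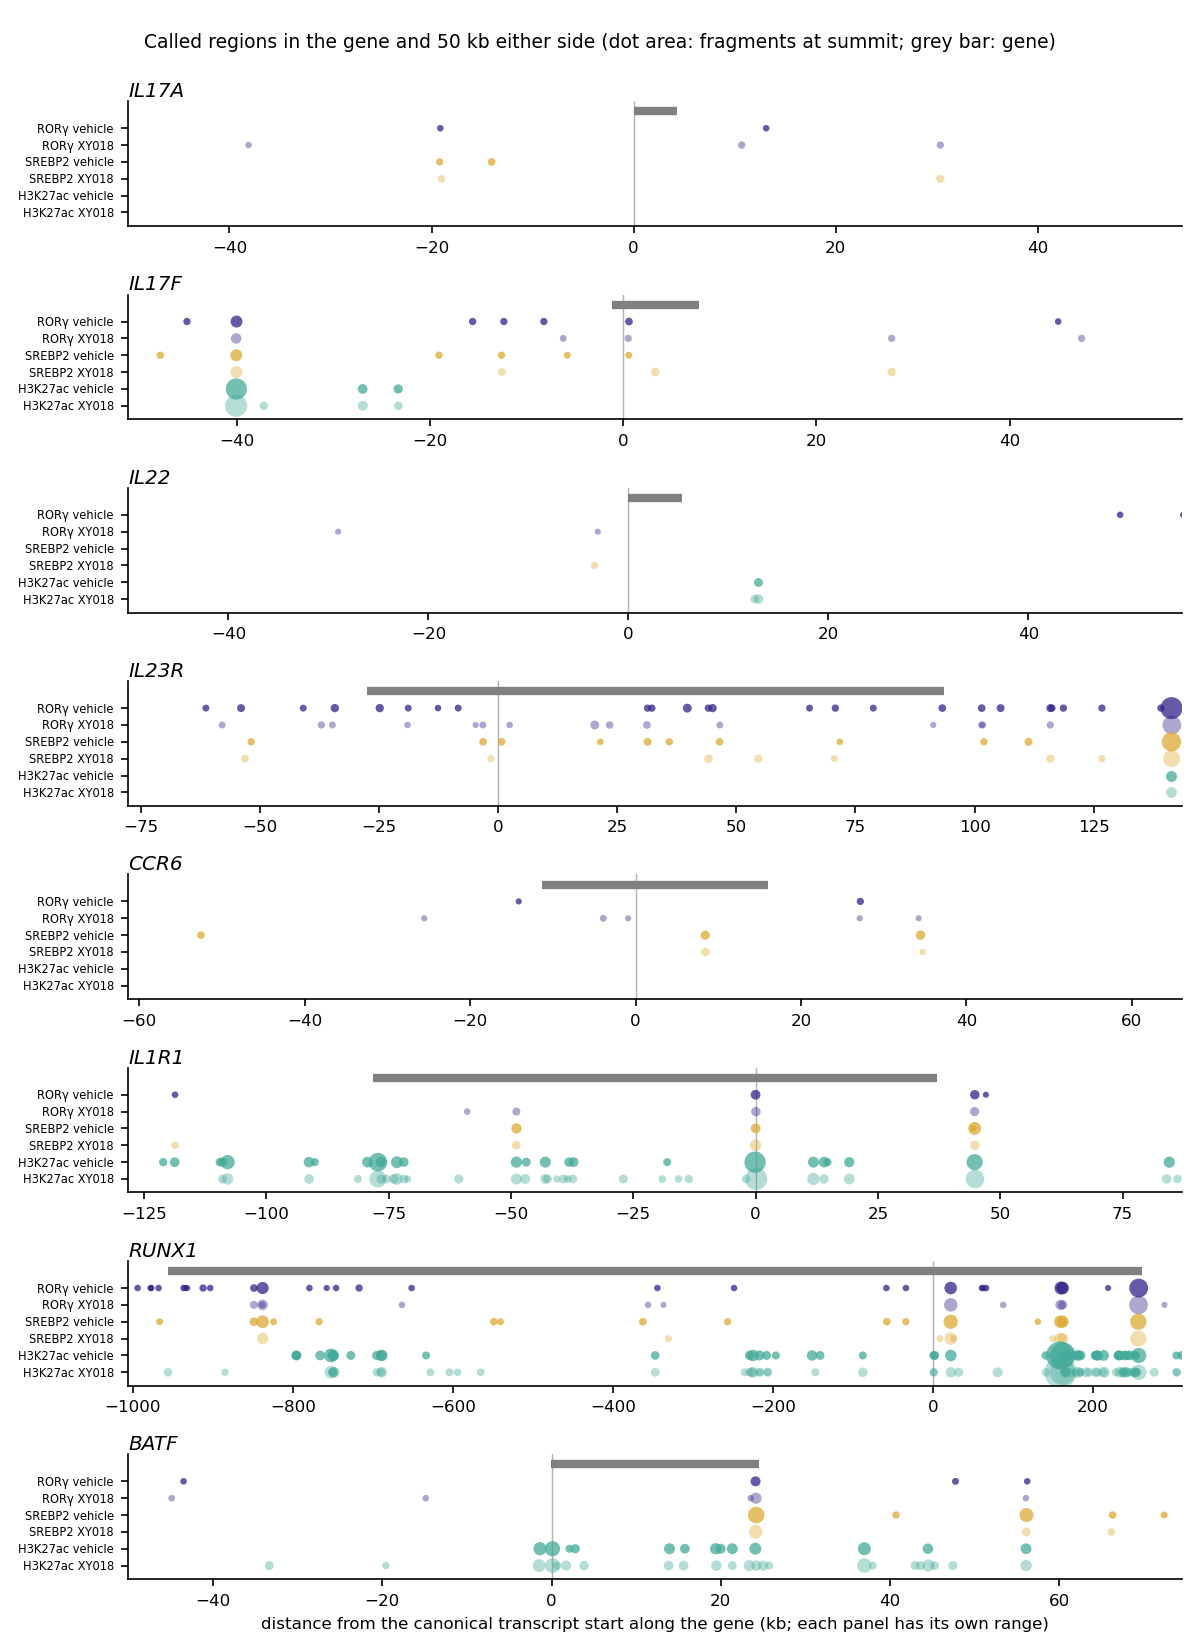
Called regions in the window of each member by distance of the summit from the canonical start along the gene, in kb, 1 row of dots per library, with dot area growing with the fragments at the summit and the gene drawn as a grey bar. Vertical stacks of dots mark places called in several libraries: the MCM3 promoter upstream of IL17F, the IL12RB2 promoter downstream of IL23R, the canonical start of IL1R1, and the alternative starts and last exon of RUNX1.

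Regions of the 2 factors tended to coincide where they were strong. Of the 12 RORγ vehicle regions at the members with q of at most 1e-05, 10 overlapped an SREBP2 vehicle region (83.3%, against 91% of all such RORγ regions) and 9 an H3K27ac vehicle region (75% against 54.3%). Of all 73, 16 overlapped SREBP2 (21.9% against 34.6%) and 11 overlapped H3K27ac (15.1% against 16.7%). Of the 101 H3K27ac vehicle regions at the members, 11 overlapped a RORγ vehicle region (10.9% against 27.9%). By place, 3 of the 12 RORγ regions lay at a promoter of a member, all of them at IL1R1 or RUNX1. Another 3 lay at the promoter of a neighbouring gene, MCM3, IL12RB2 or IL1RL2. The share of all RORγ vehicle regions of that strength at promoters was not computed, so this placement is not read as particular to the members.

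XY018 was compared with vehicle by whether a vehicle region shared at least 1 bp with a region of the same antibody after XY018. For RORγ, 19 of 73 member regions did (26%, exact binomial 95% interval 16.5 to 37.6), against 36.4% of all RORγ vehicle regions. For SREBP2, 18 of 48 did (37.5%, 24 to 52.6, against 39.8%), and for H3K27ac 74 of 101 did (73.3%, 63.5 to 81.6, against 69.3%). The intervals cover counting error only. With both lists restricted to q of at most 1e-05, the shares were 83.3% for RORγ (10 of 12, against 80.6%), 73.3% for SREBP2 (11 of 15, against 60.3%) and 64.6% for H3K27ac (51 of 79, against 71.3%). With each antibody's lists brought to equal length by −log10 p, the shares were 29.3% for RORγ (against 42.7%), 65.2% for SREBP2 (15 of 23, against 62.2%) and 71.3% for H3K27ac (against 66.8%). Kept RORγ regions had a median fold of 7.19 and those not kept of 3.36, so the regions that were not kept were mostly the weak ones.

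Where a region was called with both treatments, its fragments were scaled by each library's genome-wide background and set against each other. The median ratio of XY018 to vehicle was 0.945 for RORγ over 18 pairs, against 1.04 over all pairs in the genome. After this scaling, the fragments lay outside each other's 95% counting intervals in 1 of the 18 RORγ pairs, the RUNX1 region at the start of 36259480 (ratio 0.532), against 6.48% of all pairs. The RUNX1 region over the start at 36262087 (ratio 0.648) and IL12RB2 (ratio 0.786) did not meet this. In that RUNX1 pair the RORγ summits lay apart, at 36261348 with vehicle and 36261948 with XY018. For SREBP2 7 of 17 pairs had fragments outside each other's intervals, all with a ratio below 1 (against 56.6%), and for H3K27ac 4 of 69, all with a ratio above 1 (against 19.5%). For RORγ, the last exon of RUNX1 had a ratio of 1.09, the IL1R1 promoter of 1.03 and the last exon of BATF of 1.45. In the last exon of RUNX1 the RORγ summits also lay apart, at 36164253 with vehicle and 36164403 with XY018. For SREBP2 the ratio was below 1 in 15 of 17 pairs, with a median of 0.665, against 0.608 over all pairs. The unscaled SREBP2 fragments were fewer with XY018 in 12 pairs, equal in 3 and more in 2. Among the equal pairs, those at IL17A (7 fragments) and BATF (8 fragments) joined weak regions that overlapped only at their ends. The lowest member ratio was 0.299 at FLVCR2, followed by 0.302 at the GPR31 exon near CCR6 and 0.379 at IL1RL2, and the IL1R1 promoter had 1.24. The GPR31 pair, among the 7 above, had its vehicle summit at 167571030 and its XY018 summit at 167571271. Its ratio therefore compares different positions. H3K27ac had a median ratio of 1.05 over 69 pairs, against 1.1, and the RUNX1 region over the start at 36262087 had 1.43. The members' SREBP2 median thus lay near that of the whole list.

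**Figure D3:**
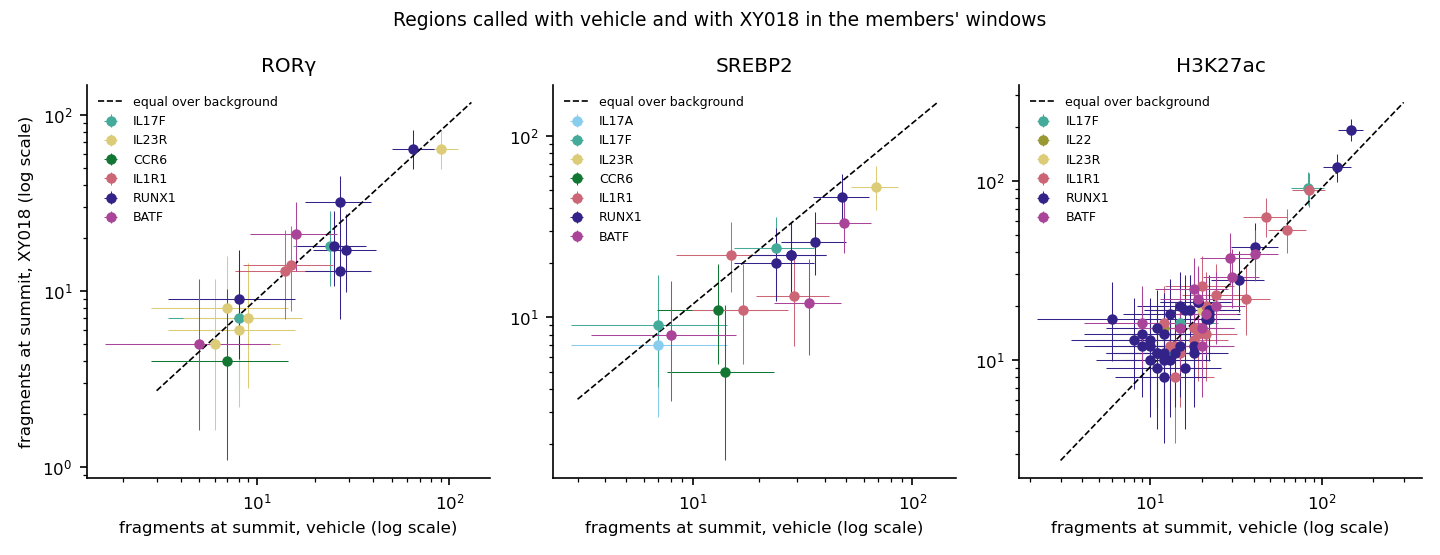
Fragments at the summit with vehicle (x) and XY018 (y), both on log scales, for regions called with both treatments in the members' windows, coloured by gene, with exact Poisson 95% intervals. The dashed line marks equal fragments over each library's background: RORγ points scatter about it, 15 of 17 SREBP2 points lie below it, and H3K27ac points follow it.

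The members differed in base composition. The GC content of the canonical promoter window was 42.8% for IL17A, 40.2% for IL17F, 31.4% for IL22, 36.6% for IL23R, 49.1% for CCR6, 59.7% for IL1R1, 40.6% for RUNX1 and 46.4% for BATF, beside a median of 54.7% over 19812 genes. Over the distinct starts of all protein-coding genes, 4.68% of windows below 45% GC had a RORγ vehicle region, 27.5% from 45 to 55%, 62.5% from 55 to 65% and 96.5% at 65% or more. SREBP2 with vehicle gave 4.72%, 38.1%, 79.4% and 99.1%. Of the members' starts, 2 of 28 below 45% GC had a RORγ vehicle region, 1 of 14 from 45 to 55%, 2 of 3 from 55 to 65%, and at 65% or more both did, the RUNX1 starts at 36260987 (73.4% GC) and 36262087 (70.5%). The called starts from 55 to 65% were IL1R1 starts under 1 shared region, and the RUNX1 starts at 65% or more also shared 1. They are therefore not separate observations. The canonical RUNX1 start, with no region called in its promoter window, lay in the lowest class. The part of base composition in these calls was not tested.

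**Figure D4:**
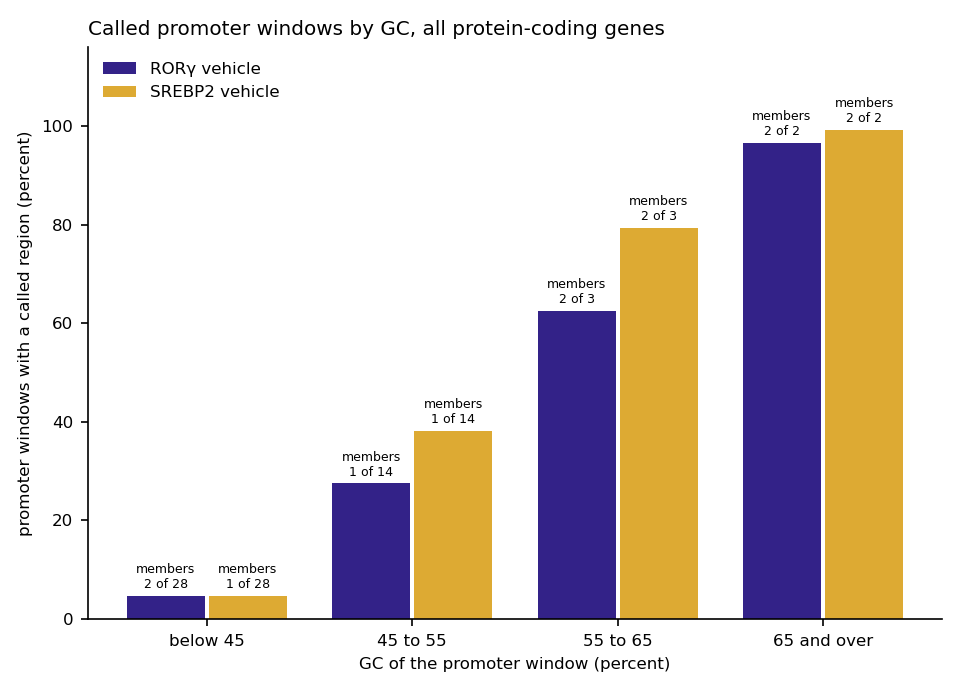
Percentage of promoter windows with a called RORγ or SREBP2 region with vehicle, by GC content of the window, over the distinct starts of all protein-coding genes. The text over each bar gives the members' starts called of those in the class, 2 of 28 for RORγ below 45% GC and 2 of 2 at 65% or more. The latter 2 starts lay under a single shared region.

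Other genes of the Th17 programme were read at promoters in the same way, beside the shares of all genes given above (62.7% and 61.5% for RORγ, 70.6% and 62.7% for SREBP2, 66.8% and 68% for H3K27ac). Among 10 further cytokine and receptor genes, RORγ regions lay at 4 with vehicle and 5 with XY018, SREBP2 regions at 5 and 4, and H3K27ac regions at 5 and 5. The cytokine and chemokine genes of this list, IL21, IL26 and CCL20, and the Th17 surface marker KLRB1 had none in any list. The receptor genes IL6R (32 and 32 RORγ fragments), IL6ST (16 and 7) and IL1RAP (13 and 10), whose products also serve non-lymphoid cells, were called for both factors and H3K27ac with both treatments. IL21R had 7 and 9 RORγ fragments and no H3K27ac region. IL12RB1, a receptor gene of lymphocytes, had H3K27ac regions with both treatments (15 and 17 fragments). It also had an SREBP2 region with vehicle (16) and a RORγ region with XY018 (6). IL17RE had H3K27ac regions with both treatments (18 and 13) and no region of either factor.

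Among 10 transcription factors and signalling genes of the programme, RORγ and SREBP2 regions lay at 10 with either treatment, and H3K27ac regions at 9, MAF being the gene without one, beside those same shares of all genes (62.7%, 61.5%, 70.6%, 62.7%, 66.8% and 68%). IRF4, a lymphocyte factor, had 81 and 67 RORγ fragments and 14 and 16 H3K27ac fragments. STAT3, which relays IL-6 and IL-23 signals, had 11 and 7 RORγ fragments and 104 and 112 H3K27ac fragments. The order of these genes by RORγ therefore differed from that by H3K27ac.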

How the data were processed

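ChIP-seq libraries of HCC70 cells were aligned to hg19 by the authors; the methods name BWA and the submitters' processing notes Bowtie2. The authors called regions with MACS2 2.1.0, per library. The deposited lists give, per region, a fold ratio ((fragments + 1)/(local background + 1) at the summit) and −log10 p and q values. The H3K27ac lists hold part of a longer numbered call set.

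Whole fragments and local background were recovered from the fold and −log10 p under the Poisson model, with a tolerance of 0.05 of 1 step, and checked on simulated data. Intervals are exact 95% (Poisson or Clopper-Pearson) and cover counting error only. Regions were assigned with GENCODE 44 (hg19 coordinates) by at least 1 bp of overlap, using Python 3.11.15, NumPy 2.4.6, pandas 2.3.3 and SciPy 1.17.1. The members were always named, and other genes only from marker and pathway lists or where a region in a member's window met their promoter. In the list of Th17 transcription factors and signalling genes, 1 gene is not reported here and is left out of the counts. Members and lists were chosen with earlier results of these data known. No test was possible with 1 library per group. Alternatives changed the q threshold, promoter and window size, transcript set, overlap, list length and scaling.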

Additional observations from a re-analysis of the deposited data

How the results depend on the processing

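Of the alternative settings chosen at the outset, 56 left a result within 1.5 times the reported count or within its interval, and 13 moved one further. With starts widened to 5 kb either side, the members with a region at a start rose from 2 to 5 for RORγ with vehicle, from 3 to 6 for RORγ with XY018 and from 2 to 5 for SREBP2 with XY018. At q of at most 0.01, the regions in the members' windows numbered 37 for RORγ with vehicle and 22 with XY018, in place of 73 and 50. At q of at most 1e-05 they numbered 12 and 12 for RORγ and 15 and 12 for SREBP2, in place of 48 and 32 for the latter. With lists of equal length, SREBP2 with vehicle had 23 regions, of which 65.2% were kept with XY018, in place of 37.5% (62.2% of all SREBP2 vehicle regions at equal length). With both lists at q of at most 1e-05 the shares kept were 83.3% for RORγ, in place of 26%, and 73.3% for SREBP2. These settings hold fewer regions by construction. An alternative added after seeing the data left out RUNX1, whose window is the longest. The windows then held 45 RORγ and 31 SREBP2 regions with vehicle, and 43 and 62 H3K27ac regions with vehicle and XY018. The ratios of XY018 to vehicle moved little under the settings run, between 0.945 and 1.03 for RORγ and between 0.665 and 0.737 for SREBP2. No paired analysis was possible because each group is 1 library. The lists hold called regions only, and those of H3K27ac a selection of them by a rule not given in the sources used here, so a missing row does not show that enrichment is absent, and a region listed for 1 library alone can have fragments in the other.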

Other observations

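Of 5 relatives of RUNX1 and BATF, 4 were called at promoters, where 61.5% to 70.6% of all genes were called in each list, so the count is not particular to them. RUNX2, RUNX3, CBFB (the partner subunit of RUNX proteins) and BATF3 had promoter regions in all 6 lists, and BATF2 in none. RUNX3, a factor of cytotoxic T cells, had 42 RORγ fragments with vehicle and 34 with XY018, and 93 and 133 H3K27ac fragments. BATF3, close kin of BATF, had 29 and 37 RORγ fragments and 61 and 40 SREBP2 fragments, where the BATF promoter had no factor region.

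Some promoters had strong factor regions and a weak H3K27ac region or none listed. MAF, a T helper factor, had 68 and 63 RORγ fragments and 54 and 48 SREBP2 fragments and no H3K27ac region in either list. PGR, the progesterone receptor gene, had 46 and 45 RORγ fragments and 35 and 31 SREBP2 fragments and likewise no H3K27ac region. CD8A, a T lymphocyte marker, had 41 and 40 RORγ fragments beside 16 and 16 of H3K27ac. These genes were singled out after their values were seen.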
